A study of Mus musculus with 64 samples.

Results

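Collagens are the main structural proteins of the extracellular matrix. Each is built from 3 alpha chains wound into a triple helix, and each chain is encoded by its own gene. Fibrillar collagens such as types I, III and V form the fibres of connective tissue, type IV collagens form the sheet of the basement membrane, and the remaining types join, anchor or decorate these structures. In the testis a basement membrane laid down by Sertoli cells and peritubular muscle cells surrounds the seminiferous tubules, and fibrillar collagens lie in the tubule wall and between the tubules. The genes described here are the rows of the deposited expression tables whose symbol reads Col, a number, a and a number. That pattern takes 43 of the 26385 rows of each table, and 42 of them are reported. By structural class these are 11 genes of fibrillar chains, 6 of basement membrane type IV chains, 5 of beaded filament type VI chains, 3 of short-chain network collagens, 9 of fibril-associated collagens (FACITs), 4 of transmembrane collagens, 2 of multiplexins and 2 others, the anchoring fibril gene Col7a1 and Col28a1.

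The 47 RNA-seq libraries came from male mice and were made to follow the loss of Morc1, a germline ATPase gene. The Morc1 tg allele is an FVB/N line in which a tyrosinase transgene inserted into Morc1 and removed exons 2–4, so Morc1 reads remain in tg/tg animals. Poly-A libraries of whole testis covered 1 Morc1 +/+, 2 Morc1 tg/+ and 3 Morc1 tg/tg mice at P10.5 (P for postnatal day), a preliminary pair of 1 +/+ and 1 tg/+ at P10.5 and 3 tg/+ and 3 tg/tg at P14.5. They also covered 3 Dnmt3l +/+, 3 Dnmt3l +/- and 3 Dnmt3l -/- mice and 2 libraries labelled Miwi2 het and 2 labelled Miwi2 KO, all at P10.5. Dnmt3l encodes a cofactor of de novo DNA methylation and Miwi2 (symbol Piwil4) a nuclear piRNA-binding protein, both acting in fetal germ cells. Germ cells sorted from Morc1 tg/+ and tg/tg males gave rRNA-depleted total RNA libraries, with 2 and 2 libraries at E16.5 (E for embryonic day), 2 and 2 at E18.5, 3 and 2 at P2.5 and 4 and 3 at P10.5. Cells of E16.5 to P2.5 were sorted as GFP-positive from mice of mixed background carrying the Oct4-IRES-eGfp reporter, whereas P10.5 cells were sorted by low side scatter, high EPCAM and absent MHC class I. Fetal testes were dissociated with trypsin, and those of P2.5 and P10.5 with type IV collagenase and then trypsin.

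Depth on genes was 22509570 to 42137954 reads in the 27 testis libraries and 2413679 to 14918478 in the 20 germ cell libraries, which were shallowest at E18.5 and P2.5. The targeted genes followed the labels for Morc1 (2.06 to 2.41 RPKM, reads scaled to exon length and to mapped reads, in tg/tg testis at P10.5 against 6.29 and 6.46 in tg/+ and 10.2 in +/+) and for Dnmt3l (0.0370 to 0.0464 RPKM in -/- against 0.374 to 1.02 in controls). Piwil4 went against its labels, at 6.65 and 7.01 RPKM in the libraries labelled Miwi2 het and 10.7 and 11.5 in the libraries labelled Miwi2 -/-, so every direction given for that line is a direction between labels. Marker genes of epididymis and ducts stood high in 2 Dnmt3l control libraries (summed 36.3 and 26.3 RPKM, against 1.03 to 10.8 in the other 4). Each library was 1 mouse, so p-values measure the spread between mice of one label.

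Several collagen genes lie in pairs. In the mm9 annotation Col4a1 and Col4a2 (chromosome 8), Col4a4 and Col4a3 (chromosome 1) and Col4a6 and Col4a5 (chromosome X) each start head to head on opposite strands, with an overlap of 22 bases, a gap of 71 bases and a gap of 1308 bases. The start regions of a tightly and a loosely spaced pair are shown here because the chains of these pairs are compared throughout. They are RefSeq windows of the GRCm38.p6 build, which run from 250 bases before to 50 after the start, and each is written 5′ to 3′ on the strand of its gene. In the first pair the capitals mark the 78 bases that both windows hold, read from opposite strands.
Col4a1, chr8:11312777-11313076, minus strand: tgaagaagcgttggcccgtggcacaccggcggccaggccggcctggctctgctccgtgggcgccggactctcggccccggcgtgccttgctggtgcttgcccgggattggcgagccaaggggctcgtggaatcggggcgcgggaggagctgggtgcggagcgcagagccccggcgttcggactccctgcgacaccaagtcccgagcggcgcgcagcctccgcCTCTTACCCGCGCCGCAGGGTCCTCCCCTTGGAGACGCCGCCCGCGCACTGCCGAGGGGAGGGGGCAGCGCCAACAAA
Col4a2, chr8:11312555-11312854, plus strand: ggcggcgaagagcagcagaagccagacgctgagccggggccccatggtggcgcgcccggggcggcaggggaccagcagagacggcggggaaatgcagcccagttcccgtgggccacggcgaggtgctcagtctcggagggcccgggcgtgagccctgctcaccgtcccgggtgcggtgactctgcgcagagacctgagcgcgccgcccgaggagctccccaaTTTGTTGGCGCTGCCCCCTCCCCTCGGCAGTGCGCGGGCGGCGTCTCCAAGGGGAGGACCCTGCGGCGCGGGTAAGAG
In the second pair, whose starts are 1342 bases apart in that build, the capitals mark matches to a GC box (GGGCGG or CCGCCC) or a CCAAT box (CCAAT or ATTGG).
Col4a5, chrX:141475169-141475468, plus strand: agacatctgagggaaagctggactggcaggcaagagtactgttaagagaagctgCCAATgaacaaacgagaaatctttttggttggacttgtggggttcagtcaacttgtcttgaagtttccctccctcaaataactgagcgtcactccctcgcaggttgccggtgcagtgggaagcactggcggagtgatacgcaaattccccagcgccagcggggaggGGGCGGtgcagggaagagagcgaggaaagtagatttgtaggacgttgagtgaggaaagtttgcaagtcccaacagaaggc
Col4a6, chrX:141474027-141474326, minus strand: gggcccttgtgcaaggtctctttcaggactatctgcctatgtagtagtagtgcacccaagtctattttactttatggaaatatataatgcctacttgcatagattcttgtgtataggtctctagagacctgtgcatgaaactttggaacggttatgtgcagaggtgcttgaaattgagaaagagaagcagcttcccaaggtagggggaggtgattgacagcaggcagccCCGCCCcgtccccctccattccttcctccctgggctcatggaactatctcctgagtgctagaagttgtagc
The window of Col19a1, the collagen gene with the largest fold differences among those called between genotypes, had no match to either motif or to a TATA box (TATAAA or TTTATA).
Col19a1, chr1:24587388-24587687, minus strand: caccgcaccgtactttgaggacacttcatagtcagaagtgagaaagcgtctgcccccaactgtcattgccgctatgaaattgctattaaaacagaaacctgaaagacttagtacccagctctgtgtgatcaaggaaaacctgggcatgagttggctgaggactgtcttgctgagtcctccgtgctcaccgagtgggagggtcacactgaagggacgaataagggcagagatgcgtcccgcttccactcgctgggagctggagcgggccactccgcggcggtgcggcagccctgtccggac

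The 2 windows of the Col4a1 and Col4a2 pair were 74% and 73.67% G and C, with 37 and 33 CpG dinucleotides, against 52.67% and 48.33%, with 11 and 3, for Col4a5 and Col4a6 and 56.33%, with 16, for Col19a1. Of the 42 collagen genes 34 had a RefSeq window, and Col4a3 did not. On either strand a GC box lay in 22 of the 34 windows and in 35.7% of all 32851 windows of the same length, a CCAAT box in 12 of 34 and 37.4%, and a TATA box in 5 of 34 and 13.6%. A GC box and a CCAAT box can lie in the same window. Other neighbours were Col9a1 and Col19a1, tail to tail with 9151 bases between them on chromosome 1 (mm9), and Col6a6, Col6a5 and Col6a4 in a row on chromosome 9. In mm9 Col19a1 runs from 24268729 to 24594311 on the minus strand of chromosome 1, a span of 325583 bases.

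Whole testis expressed a broad set of collagen genes. Of the 42 genes, 28 to 33 reached 1 RPKM in each testis library, and collagen reads made up 0.465% to 1.14% of the reads on genes. Over all libraries pooled, the highest means were those of 3 classical genes of connective tissue fibres, with Col1a2 at 249 ± 67.8 RPKM (SD, n = 27 libraries of all genotypes and ages), Col3a1 at 212 ± 54.1 and Col1a1 at 128 ± 34.6. Next came the beaded filament gene Col6a1 at 118 ± 33.0, the basement membrane gene Col4a1 at 106 ± 29.5 and the multiplexin gene Col18a1, whose product carries the endostatin fragment, at 99.6 ± 19.6. The spreads of Col1a1, Col6a1, Col4a1 and Col18a1 overlapped, so their order is not fixed by these libraries. In the tg/+ libraries of P14.5 Col18a1 (93.2 ± 9.74 RPKM) stood above Col1a1 (76.5 ± 2.86), and Col1a2 and Col3a1 led there too. The lowest were Col10a1, a gene of growth plate cartilage, at 0.0193 ± 0.0121 RPKM and Col19a1, a FACIT gene, at 0.0831 ± 0.102.

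Sorted germ cells held far less collagen RNA. Collagen reads were 0.0475% to 0.172% of the reads on genes, and the summed level of the 42 genes was 38.5 to 134 RPKM per library, against 696 to 1790 RPKM in testis. The order of the genes was different as well. Over all stages and genotypes pooled, the highest mean was that of Col5a1, a fibrillar gene that regulates fibre diameter, at 8.53 ± 3.95 RPKM (n = 20), followed by Col18a1 at 6.53 ± 3.06, Col1a1 at 5.81 ± 2.49, Col6a2 at 5.58 ± 4.34 and the transmembrane gene Col13a1 at 4.26 ± 1.81. These 5 overlapped within their spread, and the leading gene differed by stage. In tg/+ libraries it was Col6a2 at E16.5 (10.8 ± 0.419 RPKM, against 5.52 ± 0.472 for Col5a1), Col5a1 at E18.5 (13.5 ± 3.42) with Col6a2 within its spread (11.7 ± 0.211), and Col18a1 at P2.5 (11.9 ± 2.01). At P10.5 Col1a1 (6.93 ± 0.373) and Col5a1 (6.83 ± 0.397) did not differ beyond their spread. Col3a1, the testis gene in second place, was at 0.359 ± 0.380 RPKM in germ cells. The 2 tissues were prepared with different library kits, so kit and cell type cannot be told apart in any of these levels.

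**Figure D1:**
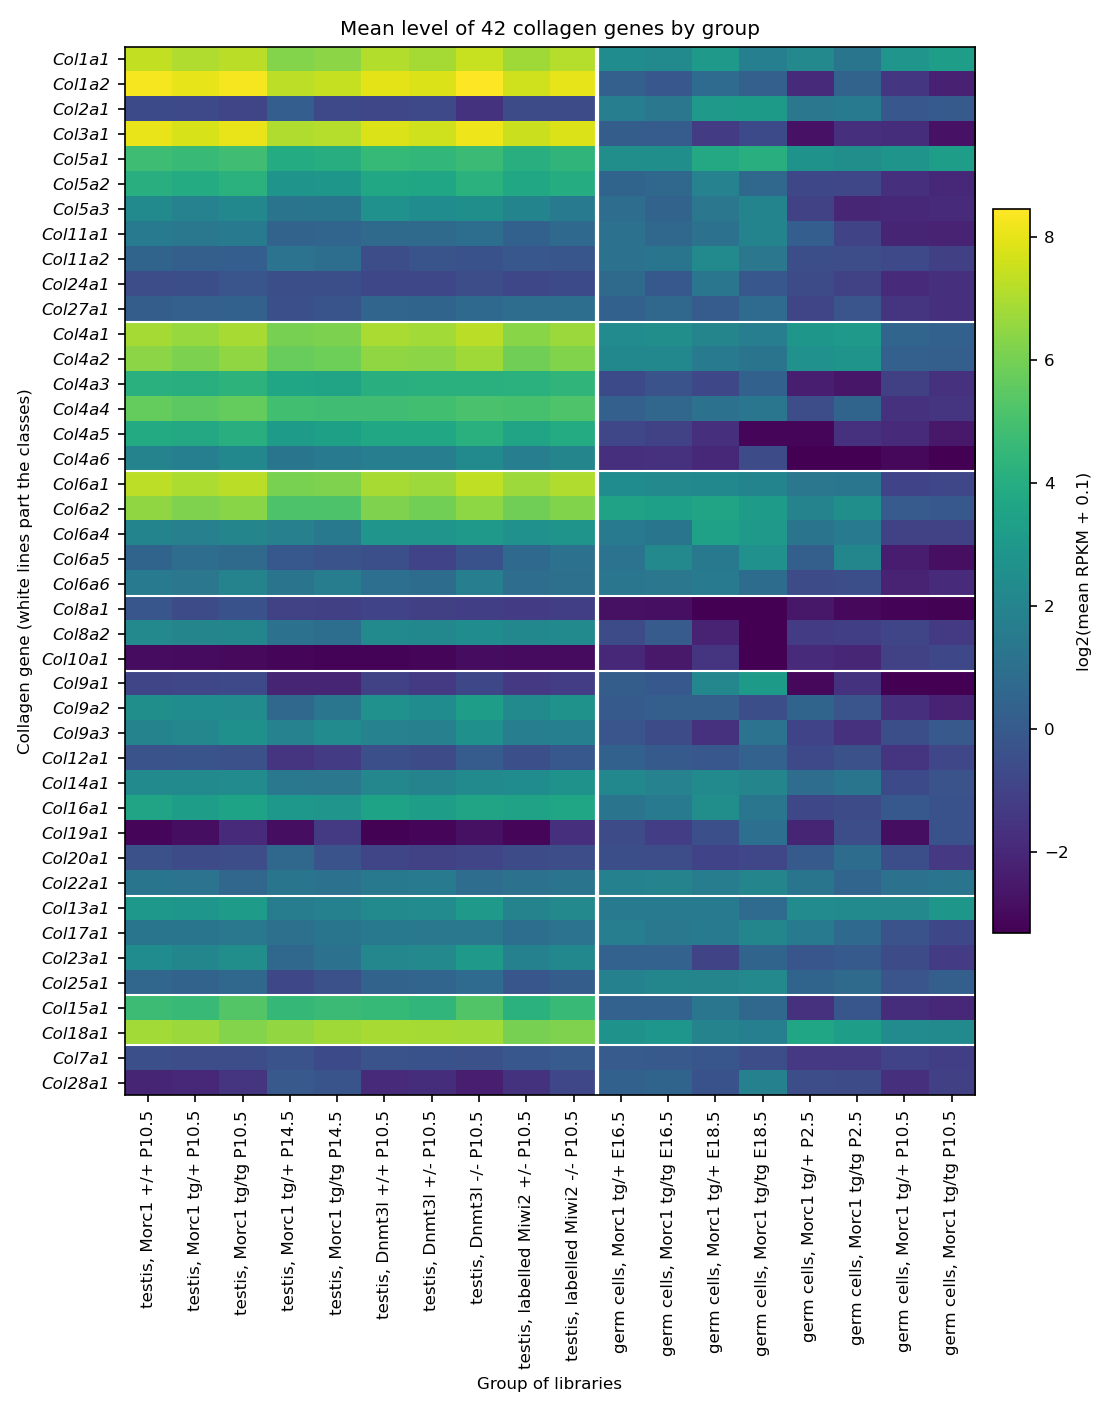
Heat map of the mean level of each of the 42 collagen genes (rows, ordered by class, white lines between classes) in 18 groups of libraries (columns, whole testis left of the thick line, sorted germ cells right of it), coloured by log2 of the mean RPKM plus 0.1. The type I, III and IV genes, Col6a1, Col6a2 and Col18a1 are brighter in testis than in germ cells, and the germ cell columns darken from E18.5 to P10.5. Other type VI genes differ from this: Col6a5 has the higher mean in germ cells (2.14 RPKM, against 1.07 in testis). Col6a4 is at 10.6 RPKM in tg/+ germ cells of E18.5, against a testis mean of 5.19.

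Several pairs of collagen genes kept close ratios in testis, whether or not their chains assemble together. The level of Col1a2 was 1.77 to 2.16 times that of Col1a1 in all 27 testis libraries (RPKM, per length), and Col3a1, whose chain forms a collagen of its own, was 1.46 to 1.84 times Col1a1. For type VI, Col6a1 was 1.61 to 2.14 times Col6a2. For the head-to-head pairs of type IV, Col4a1 was 1.11 to 1.41 times Col4a2 and Col4a5 was 3.57 to 4.35 times Col4a6, whereas the ratio of Col4a3 to Col4a4 spread more widely, from 0.321 to 0.656. That last ratio was 0.365 and 0.392 in the 2 Morc1 tg/+ libraries and 0.554 to 0.656 in the 3 Dnmt3l +/- libraries of the same age, and it was not tested between lines.

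In sorted germ cells the same ratios were far from the testis values for types I and VI. Col1a2 was 0.00476 to 0.634 times Col1a1 over the 20 germ cell libraries, and 0.0195 to 0.0522 times in the 4 tg/+ libraries of P10.5, so that Col1a1 was read at 6.65 to 7.46 RPKM in them with Col1a2 at 0.135 to 0.349. Col6a1 was 0.127 to 1.05 times Col6a2. Col4a1 to Col4a2 stayed nearer, at 0.765 to 1.89 with a median of 1.24 against 1.36 in testis. The whole-testis and germ cell ranges did not overlap for types I and VI and overlapped for Col4a1 and Col4a2.

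**Figure D2:**
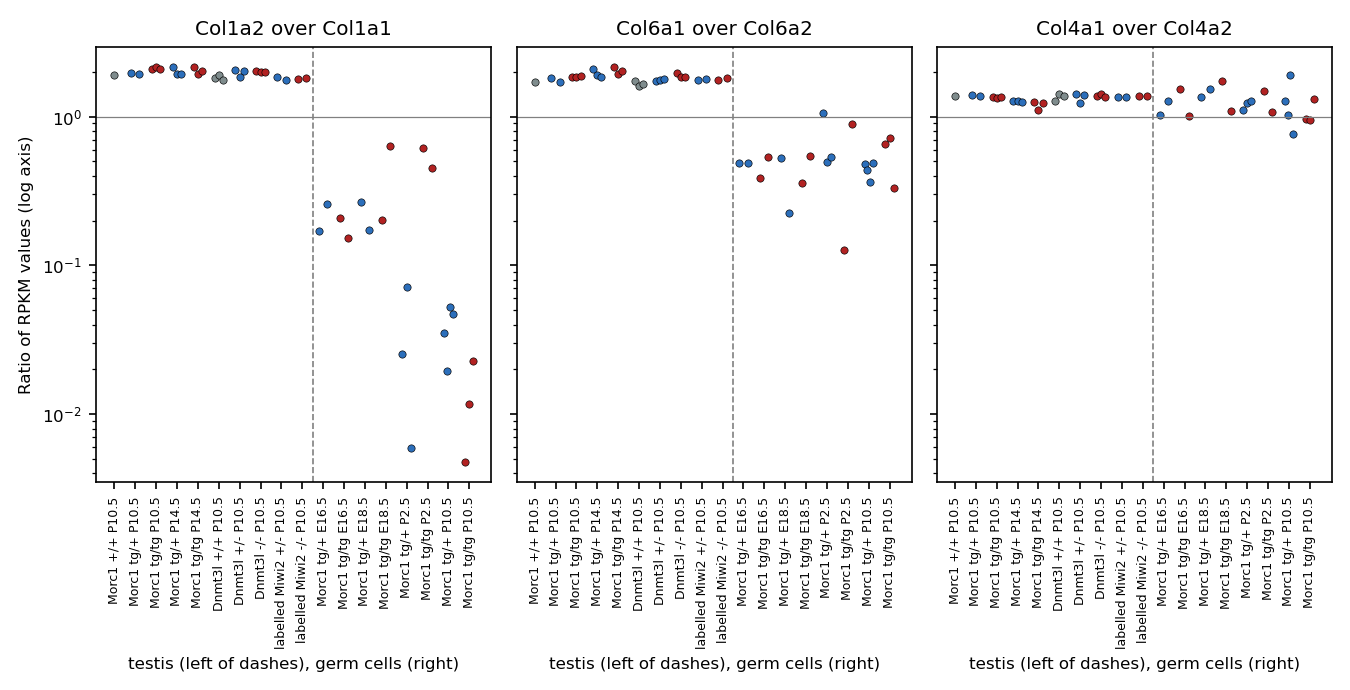
Ratio of RPKM between 2 chains of one collagen type in every library (points, log axis) for Col1a2 over Col1a1, Col6a1 over Col6a2 and Col4a1 over Col4a2, in whole testis and in sorted germ cells. The testis points form tight bands, at 1.77 to 2.16 for type I, while the germ cell points lie lower and wider for types I and VI and around the testis band for type IV.

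Against whole testis of the same age, 38 of the 41 collagen genes tested differed in sorted germ cells of P10.5, 33 lower and 5 higher (4 tg/+ germ cell libraries against 3 Morc1 controls, edgeR quasi-likelihood test, adjusted p under 0.05 over all genes). Of the 14604 genes tested 83.3% were called, 42.9% lower and 40.4% higher. In RPKM, which lack the TMM scaling of the fit, 36 of the 41 collagen genes lay wholly lower and 2 wholly higher in the sorts, against 62.7% and 19.9% of all genes. The median log2 difference was -3.45 over the collagen genes and -0.04 over all genes. Col3a1 fell from 232 ± 30.1 to 0.189 ± 0.171 RPKM (log2 difference -9.61 ± 0.25 SE, adjusted p = 5.4e-14). Col1a2 fell from 278 ± 29.2 to 0.265 ± 0.0936 RPKM (-9.36 ± 0.15). Col9a1, a FACIT gene of cartilage fibres, had 166 reads over the 3 testis libraries and 0 over the 4 germ cell libraries, at least 22.6-fold lower with a floor of 3 reads over the group. It passed the filter on low counts only through testis, where it is high. The other genes of the 10 largest changes were Col6a1, Col4a4, Col4a6, Col15a1, Col4a5, Col6a2 and Col4a1, with log2 differences from -7.65 to -5.58.

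Col1a1 fell less than its partner chain, from 144 ± 17.0 to 6.93 ± 0.373 RPKM (log2 difference -3.68 ± 0.08), and Col5a1 less still, from 25.4 ± 2.37 to 6.83 ± 0.397 (-1.20 ± 0.07). The only collagen gene more than 2 log2 units higher in germ cells was Col10a1. It was read at 0.296 to 0.500 RPKM in the 4 tg/+ libraries and 0.438 to 0.519 in the 3 tg/tg libraries of P10.5. In the 27 testis libraries it was at no more than 0.0449 (log2 difference 4.43 ± 0.50, adjusted p = 7.7e-07). Reads were 26, 18, 15 and 21 in the 4 tg/+ libraries and 3, 4 and 1 in the 3 testis controls. Col10a1 thus passed the filter on low counts only through the sorts, where it is high. The other calls on the higher side were Col2a1 (1.39), Col28a1 (1.16), Col20a1 (0.76) and Col22a1 (0.55), of which Col28a1, Col20a1 and Col22a1 overlapped between the groups in RPKM. Not called were Col13a1 (0.03 ± 0.10), Col7a1 and Col25a1. Col13a1 is the transmembrane collagen that sits at cell contacts. Its level was 4.58 ± 0.325 RPKM in germ cells and 7.30 ± 0.369 in testis, and the fit scales libraries by TMM factors, which RPKM do not use. Of the markers of other cells, all tested stromal fibroblast (5), Sertoli (7), peritubular muscle (5), Leydig (5) and mesothelial (3) genes were lower in the sorts, as were 5 of 6 endothelial, 2 of 3 blood and 4 of 5 macrophage genes. The macrophage gene Cd68 (log2 difference 0.64, 4.14 RPKM in testis and 3.97 in the sorts) and the duct gene Pax8 (2.61, 0.434 and 1.63 RPKM) were called higher, and Tek and Alas2 were not called. The 5 stromal fibroblast genes summed to 2.05 to 2.75 RPKM with Tcf21 at 0, against 260 to 305 in testis, and the 7 Sertoli cell genes to 89.8 to 145, against 3922 to 4152. Their part in the collagen values was not tested.

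Between P10.5 and P14.5 most collagen genes of control testis fell. Of 40 tested, 28 were lower, 4 higher and 8 not called at P14.5 (3 P14.5 tg/+ against 3 P10.5 controls), where 58.8% of all 15395 genes were called, 29.2% lower and 29.6% higher. The median log2 difference was -0.72 over the collagen genes and 0.00 over all genes. All 6 basement membrane genes and all 4 transmembrane genes were called lower, as were 8 of 11 fibrillar genes. In bulk tissue fewer cells of a type and less RNA per cell cannot be told apart. The P10.5 controls are the same 3 libraries that serve the germ cell comparison above and the Morc1 comparison below.

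The FACIT gene Col9a2 fell most, from 5.71, 4.90 and 5.37 RPKM at P10.5 to 1.09, 1.62 and 1.51 at P14.5 (log2 difference -1.93 ± 0.14, adjusted p = 4.5e-06). Its partner chain Col9a1 fell by 1.80 on the log2 scale, while the remaining type IX chain, Col9a3, was not called (-0.20, adjusted p = 0.22). The transmembrane genes Col23a1 (4.50 to 1.43 RPKM, -1.66 ± 0.14), Col25a1 (-1.42) and Col13a1 (7.30 to 3.03, -1.27 ± 0.10) and the FACIT gene Col12a1 (-1.53) followed. Among the abundant genes Col5a2 went from 15.6 to 6.72 RPKM (-1.22 ± 0.06), Col6a2 fell by 1.14 and Col6a1 by 0.99, Col1a1 went from 144 to 76.5 RPKM (-0.92), Col1a2 from 278 to 154 (-0.86) and Col3a1 from 232 to 130 (-0.83). Col4a1 and Col4a2 fell by 0.69 and 0.55, and Col4a4, Col4a3, Col4a5 and Col4a6 by 0.71, 0.53, 0.64 and 0.63. The multiplexin genes were not called, with Col15a1 at -0.17 (adjusted p = 0.12) and Col18a1 at -0.17 (adjusted p = 0.067).

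The 4 collagen genes called higher at P14.5 were low in level. Col28a1, a gene of a von Willebrand domain collagen, was at 0.132, 0.189 and 0.125 RPKM at P10.5 and 0.976, 0.637 and 1.07 at P14.5 (log2 difference 2.56 ± 0.27, adjusted p = 3.0e-05). Col20a1, a FACIT gene, was at 0.660, 0.507 and 0.573 RPKM and then 1.47, 1.35 and 1.68 (1.36 ± 0.15). Col2a1, the gene of cartilage fibres, was at 0.518, 0.447 and 0.554 RPKM and then 1.06, 0.938 and 1.11 (1.02 ± 0.14). None of these 3 overlapped between the ages, as for 34.2% of all genes in that direction. Col11a2, a minor cartilage fibre gene, was the fourth (0.86 ± 0.13). Beside these, 5 of 6 germ cell markers were called higher and 1 lower, and 5 of 5 stromal fibroblast markers lower. Lower were also 3 of 5 peritubular muscle and 2 of 6 endothelial markers and the 1 tested fat marker. Higher were 3 of 5 macrophage and 1 of 3 mesothelial markers and the skeletal muscle gene Myh8 (0.853 to 1.49 RPKM, log2 difference 0.80). Of 6 Leydig cell markers 1 was higher and 2 lower, and of 7 Sertoli markers 1 was higher and 5 lower. The summed germ cell markers went from 297 to 299.9 RPKM at P10.5 to 595 to 721 at P14.5, the fibroblast markers from 260 to 305 down to 156 to 172, the peritubular muscle markers from 352 to 425 down to 246 to 306 and the endothelial markers from 39.5 to 44.8 down to 28.9 to 31.1. Their part in the collagen values was not tested.

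Of 66 tested genes of the collagen pathway, a list of enzymes, receptors, proteases and matrix partners, 46 were lower and 7 higher at P14.5, against 29.2% and 29.6% of all genes. The largest falls were Mmp2, a gelatinase that degrades denatured collagen (71.9 to 14.9 RPKM, log2 difference -2.28 ± 0.13), and Postn, a matrix protein that binds type I collagen (-2.10 ± 0.13). The largest rises were Timp2, an inhibitor of matrix metalloproteinases (1.06 ± 0.07), and the collagen receptor gene Lair1 (0.74).

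Loss of Morc1 was compared first in whole testis at P10.5. Of 41 collagen genes tested, 10 were higher and 2 lower in Morc1 tg/tg (3 libraries against 3 controls, edgeR), while 15.3% of all 15165 genes were called, 6.08% higher and 9.26% lower. The median log2 difference was 0.16 over the collagen genes, 32 of 41 above 0, and 0.01 over all genes. By class 3 of 6 basement membrane genes were higher, 2 of 4 transmembrane genes were higher, 2 of 9 FACIT genes were higher and 1 lower, 1 of 2 multiplexin genes was higher and 1 lower, and 1 of 11 fibrillar and 1 of 5 beaded filament genes were higher. Leaving out 1 library at a time gave 5 to 17 collagen genes called, beside 922 to 2352 of all genes. The fit of all testis libraries together gave 6 collagen genes. The lowest count, 5, and the loss of Col9a3, Col18a1, Col4a6 and Col13a1 as calls, came without tg/tg replicate 3.

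Col19a1, a FACIT gene best known from muscle and embryonic tissue, had the largest fold difference. It was read at 0.0171 RPKM in +/+, 0.0395 and 0.0324 in tg/+ and 0.188, 0.154 and 0.162 in tg/tg, on 3, 7, 5, 29, 26 and 38 reads. The groups did not overlap, as for 15.2% of all genes in this direction and 20.2% in the other, and the log2 difference was 2.48 ± 0.32 (adjusted p = 0.00063). It was called in all 12 fits that gave it an adjusted p, at 2.20 to 2.77, and DESeq2 gave none. These fits share most of their reads, so they are not separate evidence. Col19a1 passed the filter on low counts only through tg/tg, where it is high. A small nucleolar RNA gene, SNORA64, is annotated within Col19a1, and its share of these reads was not measured.

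The 2 multiplexin genes moved in opposite directions. Col15a1, a gene of basement membrane zones, was at 26.9 RPKM in +/+, 23.2 and 26.6 in tg/+ and 37.8, 38.8 and 42.7 in tg/tg (log2 difference 0.65 ± 0.07, adjusted p = 0.00019). Col18a1 was at 112, 98.8 and 103 RPKM in controls and 68.9, 89.5 and 76.1 in tg/tg (-0.41 ± 0.09, adjusted p = 0.010). Neither gene overlapped between the groups. The second collagen gene called lower was the FACIT gene Col22a1, known from tissue junctions, at 2.25, 1.94 and 2.38 RPKM in controls and 1.33, 1.42 and 1.36 in tg/tg (-0.66 ± 0.09, adjusted p = 0.00076).

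Among the remaining calls the beaded filament gene Col6a6 went from 2.59 ± 0.286 to 3.75 ± 0.183 RPKM (log2 difference 0.55 ± 0.08), and Col9a3 from 4.13 ± 0.704 to 5.95 ± 0.655 (0.55 ± 0.12). For type IV, Col4a5 went from 14.0 ± 0.658 to 17.2 ± 0.630 RPKM (0.32 ± 0.05, adjusted p = 0.0036) and its head-to-head partner Col4a6 differed by 0.35 ± 0.07 (adjusted p = 0.0099). Col4a2 differed by 0.26 ± 0.07 (adjusted p = 0.037) and its partner Col4a1 by 0.21 (adjusted p = 0.066), while Col4a3 and Col4a4 were not called. The transmembrane genes Col13a1 (0.29 ± 0.06) and Col23a1 (0.32 ± 0.09, adjusted p = 0.035) were also called. The fibrillar gene Col5a2 (0.22 ± 0.07, adjusted p = 0.045) was the smallest call. Col23a1 was lost in 4 of the 6 fits without 1 library (adjusted p up to 0.13). The abundant genes Col1a1, Col1a2, Col3a1 and Col6a1 were not called.

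Marker genes moved beside these values. In tg/tg 5 of 6 germ cell markers were lower (summed 297 to 299.9 RPKM in controls, 179 to 202 in tg/tg), 2 of 5 stromal fibroblast markers higher (260 to 305, then 298 to 330), 3 of 7 Sertoli markers higher (3922 to 4152, then 4319 to 4788) and 3 of 5 macrophage markers higher (16.7 to 19.6, then 18.8 to 29.6). Higher were also 2 of 6 endothelial markers (39.5 to 44.8, then 44.2 to 48.9), 1 of 5 peritubular muscle markers (352 to 425, then 340 to 389) and 1 of 6 Leydig cell markers (226 to 245, then 256 to 349). Their part in the collagen differences was not tested. Of 66 tested pathway genes 15 were higher and 2 lower, against 6.08% and 9.26% of all genes. The largest of each direction were the collagen receptor gene Itga1 (0.48 ± 0.09) and Dcn, which encodes the fibril-binding proteoglycan decorin (233 to 295 RPKM, 0.36 ± 0.06), and the gelatinase gene Mmp9 (-0.39 ± 0.11) and the laminin gene Lama5 (-0.30 ± 0.08).

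**Figure D3:**
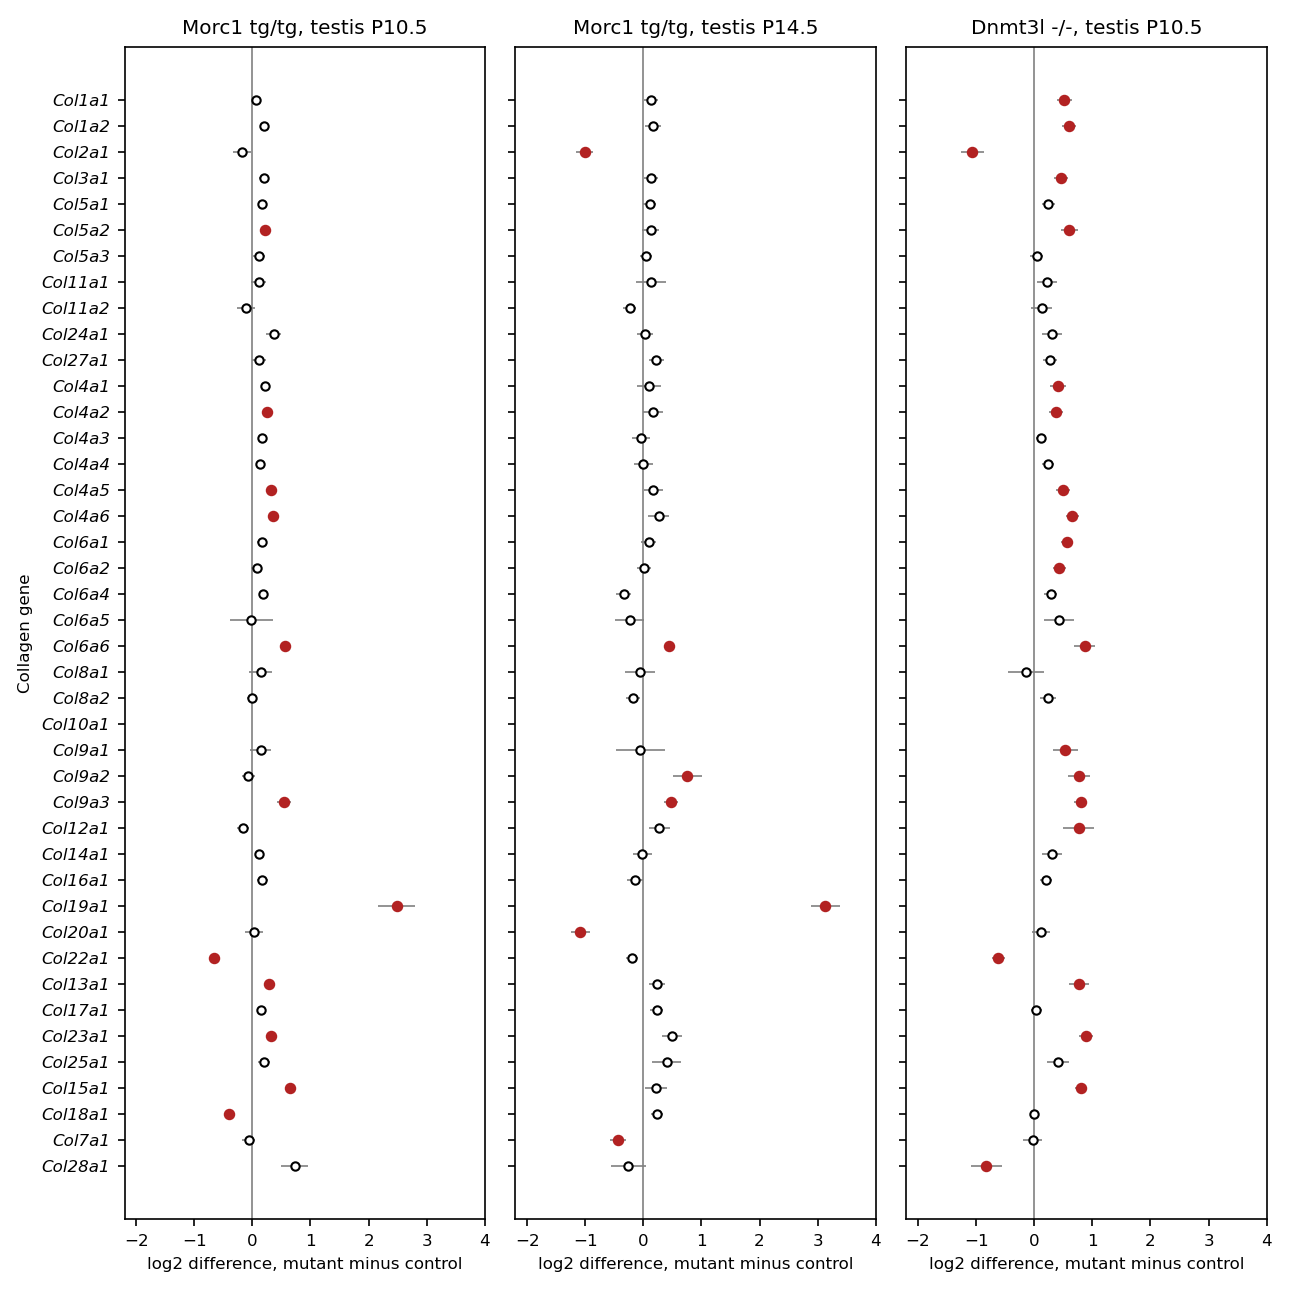
Log2 difference ± SE of each tested collagen gene in whole testis, in 3 panels for Morc1 tg/tg at P10.5, Morc1 tg/tg at P14.5 and Dnmt3l -/- at P10.5, each against its controls, with calls at an adjusted p under 0.05 in filled red. Most points lie right of 0 in the Dnmt3l panel (35 of 40), Col19a1 stands apart in both Morc1 panels, and Col10a1 in all panels and Col19a1 in the Dnmt3l panel did not pass the filter on low counts and are not drawn.

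At P14.5 the collagen genes called in Morc1 tg/tg testis were 4 higher and 3 lower of 41, below the 34.8% called among all 15283 genes (14.8% higher, 20.1% lower). The medians were 0.11 and 0.01. No basement membrane or transmembrane gene was called. Col19a1 was again the largest, at 0.0318, 0.0353 and 0.0339 RPKM in tg/+ and 0.273, 0.318 and 0.309 in tg/tg, on 5 to 6 and 44 to 49 reads (log2 difference 3.13 ± 0.25, adjusted p = 0.00011). Col6a6 went from 2.22 ± 0.0903 to 3.00 ± 0.141 RPKM (0.44 ± 0.08, adjusted p = 0.0035) and Col9a3 from 3.61 ± 0.423 to 5.00 ± 0.572 (0.48 ± 0.12). Col9a2 (0.76 ± 0.25, adjusted p = 0.041) was lost in 4 of 6 fits without 1 library, and the anchoring fibril gene Col7a1 (-0.44 ± 0.14, adjusted p = 0.038) in 5 of 6. Those fits called 4 collagen genes without tg/+ replicate 3 and 15 without tg/tg replicate 2. Calls among all genes ran from 3517 to 5001 over the 6 fits.

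The other calls were Col20a1 and Col2a1. The P14.5 tg/+ libraries serve both this comparison and that of the 2 ages, so a lower value in tg/tg and a higher value with age in these genes are not independent of each other. Col20a1 was at 1.47, 1.35 and 1.68 RPKM in tg/+ and 0.718, 0.608 and 0.786 in tg/tg at P14.5 (log2 difference -1.08 ± 0.16, adjusted p = 0.0013). Col2a1 was at 1.06, 0.938 and 1.11 RPKM and 0.511, 0.500 and 0.519 (-1.01 ± 0.14, adjusted p = 0.0011). At P10.5 both genes overlapped between genotypes, with tg/tg at 0.523 to 0.625 RPKM for Col20a1 and 0.401 to 0.487 for Col2a1, so the tg/tg values of P14.5 lay near the P10.5 values of both genotypes. Col28a1, which had also risen with age, was at 0.976, 0.637 and 1.07 RPKM in tg/+ and 1.09, 0.652 and 0.480 in tg/tg at P14.5, which overlap. Germ cell markers were lower beside these (5 of 6, summed 595 to 721 RPKM in tg/+ and 296 to 343 in tg/tg) and all 7 Sertoli markers higher (3498 to 3951, then 4542 to 5740), the 1 tested fat marker was higher, and no stromal fibroblast marker was called. Their part was not tested.

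The difference between the 2 ages in the effect of Morc1 was tested directly as an interaction. It was called for 4 of 41 collagen genes, 1 higher and 3 lower, against 8.22% of all 15657 genes (1.49% higher, 6.73% lower). The effect was lower at P14.5 than at P10.5 by 1.12 ± 0.22 for Col20a1 (adjusted p = 0.0053) and by 0.84 ± 0.20 for Col2a1 (adjusted p = 0.015). For Col18a1 it was higher by 0.63 ± 0.15 (adjusted p = 0.017): this gene was lower in tg/tg at P10.5 and at 103, 84.0 and 92.2 RPKM in tg/+ and 126, 107 and 94.7 in tg/tg at P14.5, where it was not called. Col6a4, a beaded filament gene, was the fourth (-0.53 ± 0.16, adjusted p = 0.049), and it was called in 3 of its 17 alternative fits. Without P14.5 tg/+ replicate 3, or with all testis libraries in 1 fit, the calls numbered 2. For Col19a1 the difference between ages was 0.64 ± 0.45 (adjusted p = 0.51). Of the 66 pathway genes tested at P14.5, 15 were higher and 3 lower in tg/tg, against 14.8% and 20.1% of all genes, among them the receptor gene Itga11 (0.73 ± 0.21), the procollagen protease gene Adamts3 (0.48) and, lower, 2 genes of prolyl 4-hydroxylase subunits, P4ha3 (-1.52 ± 0.35) and P4hb (174 to 132 RPKM, -0.39 ± 0.06).

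**Figure D4:**
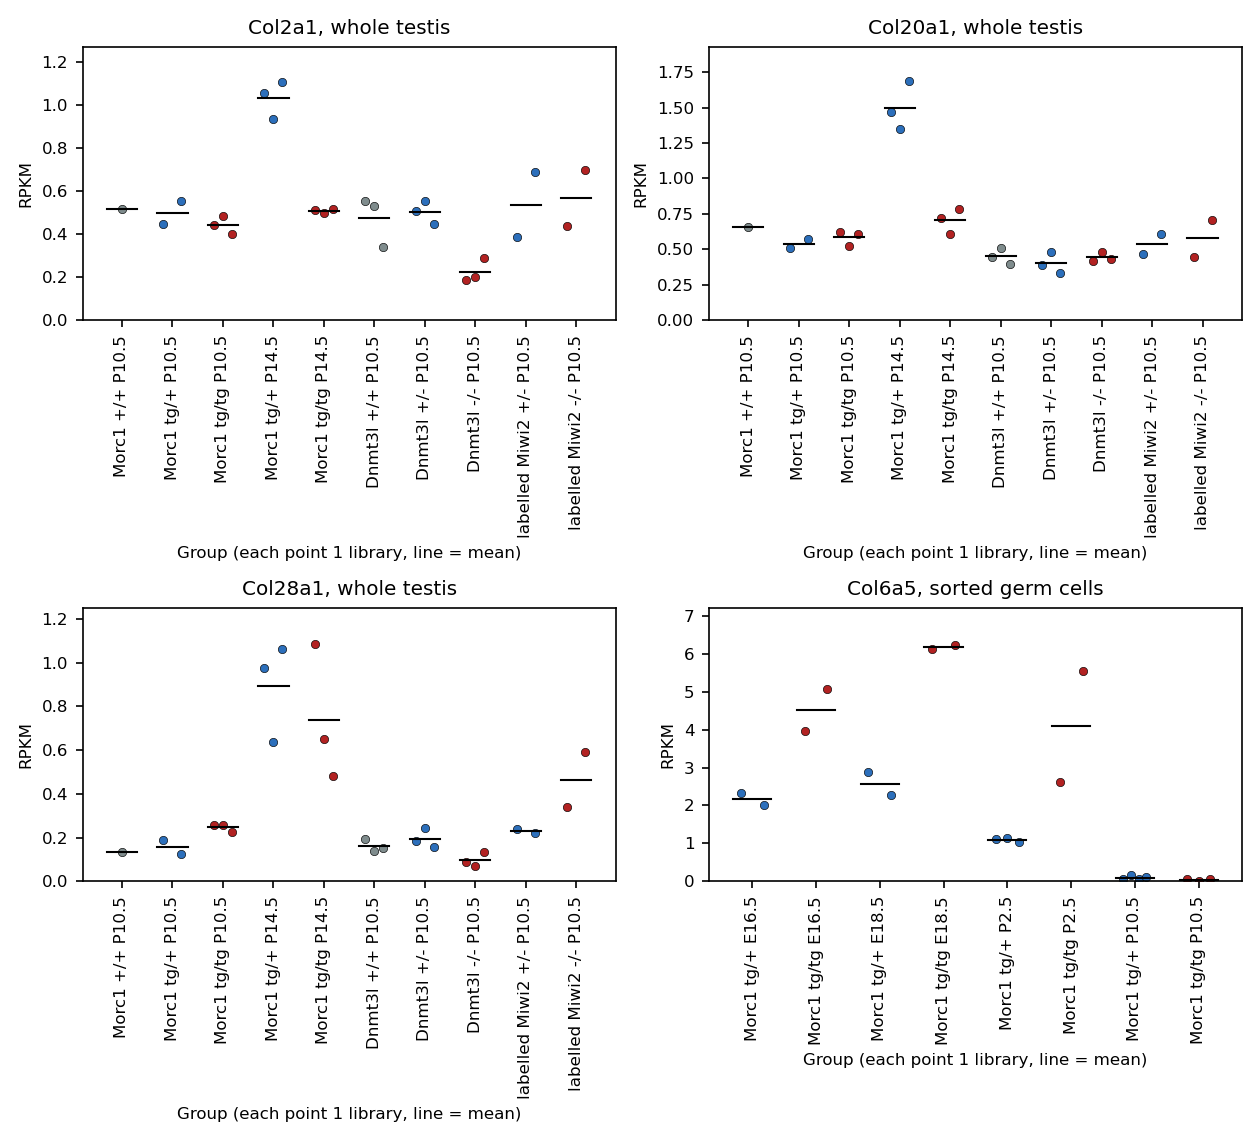
RPKM in every library (points) for Col2a1, Col20a1 and Col28a1 in whole testis and Col6a5 in sorted germ cells, by line, genotype and age, with the line at the group mean. Col2a1 and Col20a1 are higher in tg/+ testis of P14.5 (0.938 to 1.11 and 1.35 to 1.68) than in tg/tg (0.500 to 0.519 and 0.608 to 0.786), and Col6a5 lies higher in tg/tg than in tg/+ germ cells at E16.5, E18.5 and P2.5 and near 0 at P10.5.

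Dnmt3l -/- testis held higher levels of many collagen genes. Of 40 tested, 18 were higher and 3 lower than in the 6 Dnmt3l controls, where 53.9% of all 15665 genes were called, 24.9% higher and 29% lower, so the share of collagen genes called (52.5%) was near that of all genes and the share called higher was above it. The median log2 difference was 0.34 over the collagen genes, 35 of 40 above 0, and 0.00 over all genes. Higher were 4 of 11 fibrillar, 4 of 6 basement membrane, 3 of 5 beaded filament, 4 of 8 FACIT, 2 of 4 transmembrane and 1 of 2 multiplexin genes. In RPKM, 9 genes of the 40 lay wholly higher and 3 wholly lower in -/- with no overlap, against 16.9% and 27.7% of all genes. Without 1 library at a time 16 to 26 collagen genes were called, beside 6964 to 8745 of all genes. Without the 2 control libraries high in duct markers 17 collagen genes were called. Dnmt3l +/- against +/+ gave 0 of 40 collagen genes called in edgeR, against 0.00651% of all genes called. At an unadjusted p under 0.05 there was 1 collagen gene of the 40.

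Col23a1 led the higher genes, at 8.64, 8.16 and 7.19 RPKM in -/- against a lowest, median and highest of 3.84, 4.25 and 5.55 in the 6 controls (log2 difference 0.89 ± 0.11, adjusted p = 5.2e-05). Col15a1 was at 39.7, 40.6 and 34.1 RPKM against 18.9, 22.9 and 25.5 (0.80 ± 0.11), and Col9a3 at 5.39, 6.02 and 6.21 against 2.74, 3.51 and 3.97 (0.80 ± 0.11). Col6a6 was at 3.70, 3.22 and 2.60 RPKM against 1.31, 1.68 and 2.34 (0.87 ± 0.18). These 4 genes did not overlap between the groups. Col9a2 (0.77 ± 0.19), Col13a1 (0.77 ± 0.17) and Col4a6 (0.66 ± 0.11) followed, with adjusted p of 0.0040, 0.0027 and 0.00030 in edgeR. Col12a1 (0.77 ± 0.26, adjusted p = 0.026) was lost as a call without +/+ replicate 2, -/- replicate 1 or -/- replicate 2.

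The abundant genes were higher by smaller factors. Col1a2 was at 373, 388 and 290 RPKM in -/- against 187, 240 and 276 (lowest, median and highest of the controls), a log2 difference of 0.60 ± 0.13 (adjusted p = 0.0017). Col1a1 was at 184, 196 and 144 RPKM against 102, 125 and 156 (0.52 ± 0.13, adjusted p = 0.0056), so 1 of the 3 -/- libraries lay within the controls. Col3a1 went from 210 ± 30.3 to 280 ± 39.8 RPKM (0.46 ± 0.12), Col6a1 from 113 ± 14.4 to 162 ± 20.3 (0.57 ± 0.11) and Col6a2 from 65.9 ± 9.52 to 86.2 ± 10.1 (0.43 ± 0.11). Of the head-to-head genes Col4a1 (119 ± 19.8 to 152 ± 18.9 RPKM, 0.41 ± 0.13), Col4a2 (87.9 ± 13.3 to 111 ± 12.5, 0.38 ± 0.12) and Col4a5 (13.1 ± 1.94 to 18.0 ± 1.70, 0.50 ± 0.12) were called and Col4a3 and Col4a4 were not. Col18a1 was at 119, 109 and 116 RPKM against 104, 120 and 127 (0.00 ± 0.07).

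The 3 collagen genes called lower in Dnmt3l -/- were Col2a1, Col22a1 and Col28a1. Col2a1 was at 0.187, 0.199 and 0.291 RPKM against 0.342, 0.519 and 0.553 in the controls (log2 difference -1.06 ± 0.20, adjusted p = 0.00086). Col22a1 was at 1.71, 1.54 and 1.92 RPKM against 2.23, 2.71 and 3.14 (-0.62 ± 0.11, adjusted p = 0.00059). Col28a1 was at 0.0866, 0.0692 and 0.135 RPKM against 0.139, 0.171 and 0.244 (-0.82 ± 0.26, adjusted p = 0.020), and its call was lost without -/- replicate 1 or 2 and without the 2 control libraries high in duct markers. None of the 3 overlapped between the groups. Col19a1 did not pass the filter on low counts here, with 1, 1 and 0 reads in +/+, 4, 3 and 2 in +/- and 9, 6 and 17 in -/- (0.0403, 0.0248 and 0.0660 RPKM). It was therefore not tested between these groups, and its only test with this line is the direct comparison with Morc1 given below.

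Beside these values all 6 germ cell markers were lower in Dnmt3l -/- (summed 376 to 494 RPKM in controls, 136 to 161 in -/-), all 5 stromal fibroblast markers higher (244 to 299, then 331 to 392) and 5 of 7 Sertoli markers higher (3029 to 3968, then 4189 to 4799). Higher were also 2 of 6 endothelial markers (38.5 to 50.2, then 50.9 to 60.4), 2 of 5 macrophage markers (15.7 ± 1.87, then 19.4 ± 1.91, mean ± SD) and 1 of 6 Leydig cell markers (156 to 284, then 246 to 267), while of 5 peritubular muscle markers 1 was higher and 1 lower (347 to 459, then 354 to 454). The skeletal muscle gene Myh3 (log2 difference -3.75, 0.767 to 0.0548 RPKM) and the duct gene Crisp1, at 0.0160 to 34.3 RPKM in controls and 0 to 0.0344 in -/-, were lower. Their part in the collagen differences was not tested. Of the pathway list 40 of 66 tested genes were higher and 3 lower, with a median of 0.36, against 24.9% and 29% of all genes. Of the breakdown list all 7 tested genes were higher, both the proteases Mmp2 (35.6 to 78.2 RPKM, 1.18 ± 0.22), Mmp14, Mmp9 and Ctsk and the protease inhibitors Timp1, Timp2 and Timp3. Higher were also 11 of 18 genes of collagen folding and modification, 6 of 9 fibril-associated genes and 5 of 9 receptors. Leprel4, which encodes a partner of prolyl hydroxylation complexes, was the next largest rise (0.73). Pcolce2, an enhancer of procollagen cleavage (-2.31 ± 0.32), and Lama5 (-0.53 ± 0.07) were the largest falls.

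A direct test of Dnmt3l against Morc1 at P10.5, which compares the 2 differences each with its own controls, called 5 of 41 collagen genes and 17.6% of all 15902 genes (8.14% higher, 9.45% lower). The effect was lower in Dnmt3l -/- by 1.51 ± 0.36 for Col28a1 (adjusted p = 0.0090) and by 0.84 ± 0.26 for Col2a1 (adjusted p = 0.036). Col28a1 was at 0.259, 0.259 and 0.225 RPKM in Morc1 tg/tg against 0.132, 0.189 and 0.125 in its controls (0.73 ± 0.23, adjusted p = 0.056). The effect was higher in Dnmt3l -/- by 0.89 ± 0.27 for Col9a2 (adjusted p = 0.033), 0.62 ± 0.17 for Col23a1 (adjusted p = 0.022) and 0.46 ± 0.12 for Col18a1 (adjusted p = 0.015). For Col19a1, which passed the filter on low counts here through Morc1 tg/tg, the difference was -0.22 ± 0.95 and was not called (adjusted p = 0.90). Col2a1 was called in 10, Col9a2 in 14, Col23a1 in 16, Col18a1 in 21 and Col28a1 in all of the 22 alternative fits. The number of calls was 1, 2 and 13 without Dnmt3l -/- replicate 1, 2 and 3, 2 without Morc1 +/+ replicate 1 or tg/tg replicate 1, 3 without Dnmt3l +/+ replicate 2 and 8 without Dnmt3l +/- replicate 3.

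Between the libraries labelled Miwi2 -/- and Miwi2 het 4 of 41 collagen genes were called, 3 higher and 1 lower, against 1.23% of all 15997 genes (0.725% higher, 0.506% lower). The median log2 difference was 0.27 over the collagen genes, 38 of 41 above 0, and 0.01 over all genes, and 24 of 41 had an unadjusted p under 0.05 in edgeR. DESeq2 called 10 collagen genes here, the fit of all testis libraries together called 1, and a replicate block called more than either. The calls over all genes in those fits are not given here, so these counts lack that comparison. With 2 libraries on each side 31 collagen genes lay wholly higher and 1 wholly lower, against 29.7% and 22.4% of all genes. Col19a1 was at 0.0129 and 0.0165 RPKM in the libraries labelled het and 0.147 and 0.249 in those labelled -/-, on 3, 4, 35 and 58 reads (log2 difference 3.68 ± 0.48, adjusted p = 0.0028). Col15a1 was at 19.1 and 17.7 and then 25.8 and 23.6 RPKM (0.41 ± 0.07, adjusted p = 0.023) and Col4a5 at 11.8 and 11.4 and then 15.4 and 14.6 (0.35 ± 0.07, adjusted p = 0.028). Both of these calls were lost without the replicate 1 labelled -/-, in a fit where the lone library is taken to vary like the other label.

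The collagen gene called lower in that line was the fibrillar gene Col5a3, at 3.75 and 4.01 RPKM in the libraries labelled het and 2.75 and 2.93 in those labelled Miwi2 -/- (log2 difference -0.47 ± 0.08, adjusted p = 0.022). It was called in 7 of 8 alternative fits that gave it an adjusted p. No germ cell marker was called between these labels, 0 of 5 stromal fibroblast markers were, 2 of 3 tested duct markers were higher (summed 3.58 and 3.86 RPKM, then 11.3 and 11.6) and 2 of 3 tested fat markers lower. Of the Leydig cell markers Star was lower (43.0 to 32.1 RPKM, log2 difference -0.44, the list summing to 362 to 396 and then 313 to 329), and 1 of 3 blood markers (119 to 140, then 148 to 165) and 1 of 5 macrophage markers (22.6 to 22.7, then 27.0 to 29.4) were higher. Their part was not tested. Of 67 pathway genes, against 0.725% and 0.506% of all genes, 1 was higher, the procollagen protease gene Bmp1 (0.52 ± 0.09), and 1 lower, Postn (-0.43 ± 0.07).

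Collagen genes of sorted control germ cells were compared between successive stages. The share called in either direction stood clear of that of all genes in 1 of the 3 intervals, E18.5 to P2.5. From P2.5 to P10.5 that share was near the share of all genes, but the calls leaned to the lower side. From E16.5 to E18.5 4 of 40 tested genes were higher and 0 lower, against 3.49% and 4.25% of all 15768 genes (7.74% in either direction). Col6a4 was at 2.26 and 3.49 RPKM at E16.5 and 9.66 and 11.5 at E18.5 (log2 difference 1.92 ± 0.25, adjusted p = 0.020), Col2a1 at 3.13 and 3.29 and then 6.88 and 8.92 (1.32, adjusted p = 0.047), and Col16a1 (1.30) and Col5a1 (5.52 to 13.5 RPKM, 1.27) were the others. These calls rest on few libraries. Without E18.5 tg/+ replicate 1 and 2 the collagen genes called were 22 and 13, and without E16.5 tg/+ replicate 1 and 2 they were 0 and 1, while the calls over all genes in these 4 fits ran from 255 to 9106. Each of these fits leaves 1 library on one side, which is then taken to vary like the other group. Leaving out E16.5 tg/+ replicate 1 or 2 ended the calls on Col2a1, Col16a1 and Col5a1, and leaving out replicate 1 also that on Col6a4 (adjusted p = 0.053). Of the markers of other cells, Sox9 of 6 tested Sertoli genes (log2 difference 1.29) and Pecam1 of 6 endothelial genes (1.96) were higher. The endothelial genes summed to 21.0 to 26.5 RPKM at E16.5 and 38.2 to 41.5 at E18.5. Pecam1 alone went from 5.01 to 19.3 RPKM and no other endothelial gene was called, so the higher sum rests largely on that gene. The part of these markers was not tested.

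From E18.5 to P2.5, the interval that spans birth, 16 of 34 tested genes were lower and 2 higher (52.9% in all), against 13.4% and 11.2% of all 14499 genes (24.5% in either direction). The median log2 difference was -1.55 over the collagen genes and -0.04 over all genes. Col9a1 had 224 reads in the 2 E18.5 libraries and 1 read in the 3 P2.5 libraries, a ratio of 438 with a 95% counting interval of 77.9 to 17387. That interval leaves out the spread between mice, and Col9a1 passed the filter on low counts only through E18.5, where it is high. Col16a1 (-3.74), Col15a1 (-3.58), Col1a2 (-3.50), Col11a2 (-3.14), Col5a2 (-3.07), Col5a3 (-2.76), Col6a4 (10.6 to 2.18 RPKM, -2.48), Col6a6 (-2.42) and Col24a1 (-2.32) were the next largest, and the call on Col1a2 was lost in all 5 fits without 1 library. The calls on Col15a1 and Col6a6 were lost in 2 and those on Col5a3 and Col24a1 in 3 of these 5 fits. The 2 genes that rose were Col18a1, from 5.37 and 2.08 RPKM to 12.5, 9.64 and 13.5 (1.53 ± 0.33, adjusted p = 0.0074), and Col4a2, from 2.72 ± 0.159 to 6.20 ± 1.44 (0.99 ± 0.31, adjusted p = 0.041). Beside these, 2 of 5 peritubular muscle markers, 1 of 3 tested fibroblast markers, 1 of 6 endothelial and 1 of 6 tested Sertoli markers were lower. The fibroblast markers summed to 13.5 to 15.7 RPKM at E18.5 and 4.92 to 5.85 at P2.5, where Tcf21 and Dpt were at 0, and their part was not tested. The dissociation also changed between these stages, and it cannot be told apart from stage.

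From P2.5 to P10.5, across the change of sorting gate, 13 of 37 tested genes were lower and 3 higher, against 19.3% and 20% of all 14159 genes. In either direction 39.3% of all genes were called. The median log2 difference was -0.83 over the collagen genes and 0.05 over all genes. Col4a1 fell from 5.01, 8.39 and 9.12 RPKM to 1.31, 1.09, 1.86 and 1.14 (log2 difference -2.23 ± 0.22, adjusted p = 3.3e-06) and Col4a2 from 6.20 ± 1.44 to 1.14 ± 0.236 (-2.19 ± 0.21). Col6a5 (-3.34 ± 0.47), Col11a1 (-2.76), Col9a2 (-2.36), Col6a1 (-2.32), Col6a4 (-2.16) and Col6a6 (-2.02) were lower, and Col1a1 (0.87) and Col4a3 (2.03) were higher. Without 1 library at a time Col4a3 was lost in 5 and Col6a6 in 4 of 7 fits. Col4a5 had 1 read in the P2.5 libraries and 71 in the P10.5 libraries, a ratio of 32.7 with a counting interval of 5.67 to 1308. It passed the filter on low counts only through P10.5, where it is high, and the interval leaves out the spread between mice. Gate and stage cannot be told apart here, nor can the reporter and its mixed background, which are described only for the sorts up to P2.5. Of other cells' markers 5 of 7 Sertoli genes were higher (summed 24.3 to 26.1 RPKM at P2.5 and 89.8 to 145 at P10.5) and 3 of 6 endothelial genes lower (20.9 to 27.2, then 4.24 to 6.71), and their part was not tested. The number of collagen genes at 1 RPKM or more fell from 26 to 31 in the E16.5 tg/+ libraries to 6 to 8 in those of P10.5. These intervals share their middle libraries.

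Few genes of any kind were called between Morc1 genotypes in sorted germ cells before P10.5, so the counts of collagen genes there are read only as values. At E16.5 1 of 40 tested was called, against 0.421% of all 16630 genes, at E18.5 0 of 38, against 0.0416% of 14422, and at P2.5 0 of 37, against 0.0486% of 14413 (0.00694% lower). At E18.5 and P2.5 edgeR gave 7 and 3 of them an unadjusted p under 0.05, and DESeq2 called 2 and 1. The gene called at E16.5 was Col6a5, of a type VI chain best known from skin, at 2.34 and 2.00 RPKM in tg/+ and 3.96 and 5.07 in tg/tg (log2 difference 0.97 ± 0.17, adjusted p = 0.0081), and that call was lost without tg/+ replicate 2, whereas 3 genes were called without tg/tg replicate 2. With all germ cell libraries in 1 fit it was not called. Among markers of other cells only the blood gene Hbb-b1 was called at E16.5 (log2 difference 1.67, higher in tg/tg, adjusted p = 0.015), and none at E18.5 or P2.5, and its part was not tested. At E18.5 Col6a5 was at 2.88 and 2.28 RPKM and 6.13 and 6.25 (1.39 ± 0.30, adjusted p = 0.32), and at P2.5 at 1.11, 1.13 and 1.02 and 2.63 and 5.56 (1.88 ± 0.37, adjusted p = 0.21). It did not overlap between genotypes at any of the 3 stages, where 23%, 12.9% and 11.4% of all genes lay wholly higher in tg/tg. At P10.5 it was close to 0 in both, at 0.0455 to 0.155 RPKM in tg/+ and 0.0129 to 0.0561 in tg/tg.

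At P10.5 5 of 37 collagen genes were called in tg/tg germ cells, all higher (13.5%), near the 12.2% called among all 14019 genes (6.43% higher, 5.79% lower). The median was -0.15 over the collagen genes and 0.00 over all genes. With all germ cell libraries in 1 fit none of these 5 was called, Col19a1 included. Col19a1 was at 0.0334, 0.0102, 0.0571 and 0.0368 RPKM in tg/+, on 3, 1, 5 and 3 reads, and at 0.550, 0.430 and 1.06 in tg/tg, on 47, 39 and 88 reads (log2 difference 4.20 ± 0.54, adjusted p = 6.7e-06). At E16.5 the order was the other way round, with 0.653 and 0.479 RPKM in tg/+ and 0.261 and 0.428 in tg/tg and no call. At E18.5 it was at 1.25 and 0 in tg/+ and 1.74 and 2.00 in tg/tg, and at P2.5 at 0.247, 0.145 and 0 in tg/+ and 0.875 and 0.305 in tg/tg, with no call. The P10.5 values of tg/+ thus lay below those of both genotypes at E16.5, and the change with stage was not tested between genotypes.

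The other 4 genes called at P10.5 in germ cells were 2 fibrillar genes, a transmembrane gene and a FACIT gene. Col13a1 was at 4.81, 4.21, 4.90 and 4.42 RPKM in tg/+ and 7.98, 7.01 and 7.07 in tg/tg (log2 difference 0.60 ± 0.13, adjusted p = 0.0025). Col5a1 was at 7.13, 7.11, 6.81 and 6.28 and then 9.90, 9.59 and 9.19 (0.41 ± 0.08, adjusted p = 0.0020), and Col1a1 at 7.46, 6.91, 6.69 and 6.65 and then 10.0, 9.65 and 8.11 (0.34 ± 0.10, adjusted p = 0.019). Col12a1 was at 0.142, 0.307, 0.269 and 0.226 and then 0.514, 0.505 and 0.414 (0.92 ± 0.28, adjusted p = 0.029). None of the 4 overlapped between genotypes, as for 17.1% of all genes in this direction, but Col12a1 was lost as a call in 4 and Col1a1 in 3 of 7 fits without 1 library, and without tg/tg replicate 1 or 2 the calls numbered 3. Col1a2 was not called and lay at 0.0477, 0.113 and 0.184 RPKM in tg/tg.

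Markers of other cells in these sorts gave 4 of 7 Sertoli genes lower in tg/tg (summed 89.8 to 145 RPKM in tg/+, 56.6 to 113 in tg/tg) and 1 of 2 tested stromal fibroblast genes higher (2.05 to 2.75, then 3.45 to 3.83, with Tcf21 at 0 in both and Dpt at 0 in tg/tg). Of 6 germ cell markers 2 were higher and 2 lower. Their part in the collagen values was not tested. Of 57 pathway genes tested 7 were higher and 8 lower, against 6.43% and 5.79% of all genes, among them Itga1 (1.72 ± 0.22) and the collagen chaperone gene Serpinh1 (1.07 ± 0.22), both higher, and Tnxb, a tenascin of elastic tissue (-1.03 ± 0.27), and Leprel4 (-0.79 ± 0.20), both lower.

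**Figure D5:**
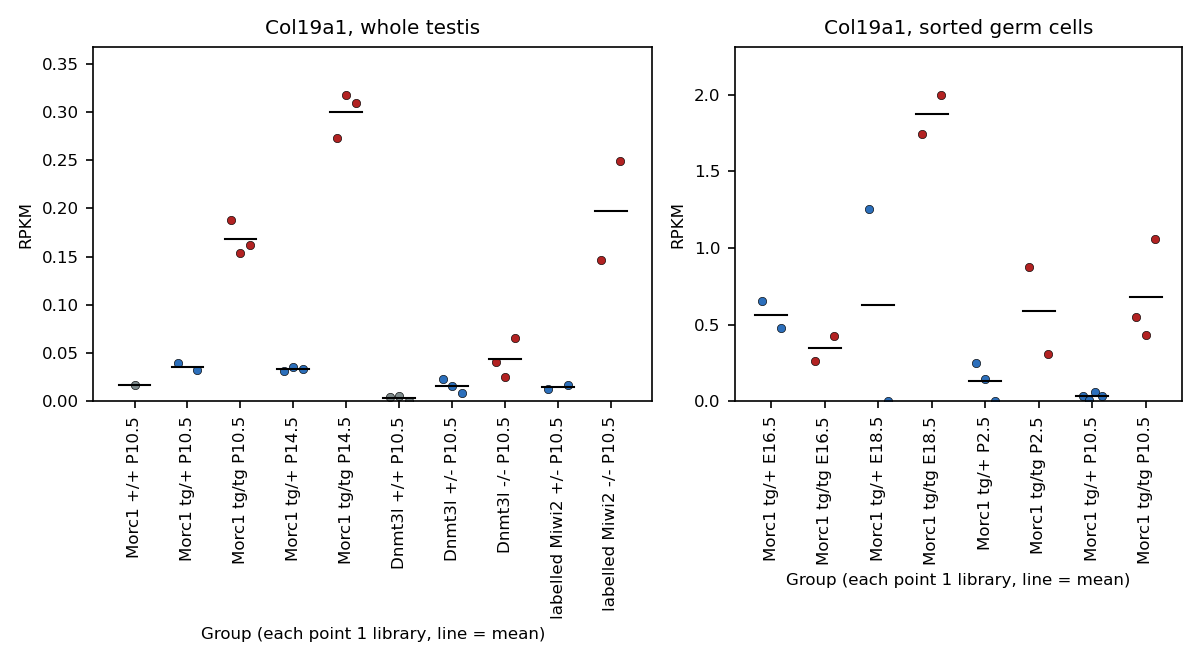
RPKM of Col19a1 in every library (points), whole testis left and sorted germ cells right, coloured red for tg/tg, -/- or the label KO, blue for heterozygous and grey for +/+, with the line at the group mean. In testis the red points of the Morc1 groups (0.154 to 0.318) and of the Miwi2 labels (0.147 and 0.249) lie above the controls, and in germ cells the genotypes separate at P10.5 (0.430 to 1.06 against 0.0102 to 0.0571). Dnmt3l -/- testis, near the floor, had 9, 6 and 17 reads against 0 to 4 per control library and was not tested against them.

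Col19a1 was thus higher in the mutant or the library labelled so in the 4 comparisons where it was called. Its controls were at or under 0.0571 RPKM in each, on 1 to 7 reads per library. It therefore passed the filter on low counts only through the side where it was high. With controls this low a fall could not have been tested, so the shared direction adds no support. For 1 of the 4, the Miwi2 line, the direction is one between labels that Piwil4 went against. These 4 comparisons share no library. The other collagen genes called in both Morc1 testis comparisons were Col6a6 and Col9a3, higher in each. At P10.5 Col15a1, Col6a6, Col9a3, Col4a2, Col4a5, Col4a6, Col13a1, Col23a1 and Col5a2 were called higher and Col22a1 lower in both Morc1 tg/tg and Dnmt3l -/- testis. Col23a1 differed between these lines in the direct test. Of all genes, 922 were called higher and 1404 lower of 15165 in Morc1 tg/tg, and 3900 and 4539 of 15665 in Dnmt3l -/-. How many of all genes were called alike in both lines was not counted, so the shared calls lack that comparison. Col18a1 was not called alike: it was lower in Morc1 tg/tg at P10.5 and level in Dnmt3l -/-, and the test of that difference was called.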

How the data were processed

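RNA-seq tables of 27 whole-testis and 20 sorted germ cell libraries were analysed, with groups taken from the labels. The authors trimmed reads to 50 bases, removed rRNA reads, mapped the rest to mm9 with Bowtie (unique hits, at most 2 mismatches) and deposited read counts per gene from HTSeq with default parameters. The RPKM values were computed by the authors per kilobase of exon and mapped reads and used as deposited. 1 further row of the symbol pattern is not reported here. Intervals and floors cover counting error only.

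Counts were tested with edgeR 4.0.16 (R 4.3.3, filterByExpr, TMM, quasi-likelihood), p-values adjusted by Benjamini and Hochberg's method across the whole table and calls at 0.05. The SE is the log2 difference over the square root of F. The code was tested on simulated data. The preliminary P10.5 pair was left out of the tests. Alternatives were DESeq2 1.42.0, no TMM, no filter, 1 fit per tissue, a replicate block, other control sets and leaving out libraries. Replicate numbers shared by groups were treated as unpaired.

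Named genes were all called collagen genes of a comparison or, above 10, the 10 with the largest change, plus the 5 of highest level in the tissue, the head-to-head type IV genes and up to 2 pathway genes in each direction. The collagen genes, the gene lists and the tests were chosen with earlier results of these data known.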

Additional observations from a re-analysis of the deposited data

Results flagged for a closer look

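In sorted germ cells of Morc1 tg/+ mice at P10.5, Col17a1, a transmembrane collagen gene of epithelial anchoring, was at 0.879 RPKM in replicate 1. This was marked as high because the other 3 libraries lay close together. Reads were 81 in replicate 1 and 64, 59 and 56 in the others. It was the 1 value marked among 77 sets of libraries examined, 37 genes in these germ cell controls and 40 in the Dnmt3l controls. Chance alone would mark about 1 in 20, so 1 mark is no more than chance would give.

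The effect of Morc1 loss in testis differed between P14.5 and P10.5 by -1.12 for Col20a1, -0.84 for Col2a1, 0.63 for Col18a1 and -0.53 for Col6a4 on the log2 scale. The effect of Dnmt3l loss differed from that of Morc1 loss at P10.5 by -1.51 for Col28a1, 0.46 for Col18a1, 0.62 for Col23a1, 0.89 for Col9a2 and -0.84 for Col2a1. These values were marked because the difference between the 2 contrasts was itself called in the interaction test.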

How the results depend on the processing

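No collagen gene that was called changed direction under any alternative, and library totals without TMM kept every count of calls within 1.5 times. With all libraries of a tissue in 1 fit, 6 collagen genes were called in Morc1 testis at P10.5, 1 in the libraries labelled Miwi2, 0 in Morc1 germ cells at E16.5 and likewise 0 at P10.5, 1 each at E18.5 and at P2.5, and 2 in the interaction of Morc1 and age. DESeq2 called 10 for the Miwi2 labels, 2 in germ cells at E18.5 and 1 at P2.5, and gave no adjusted p for Col19a1 in Morc1 testis at P10.5 or for the Miwi2 labels. Without a filter on low counts, germ cells gave 2 calls at E16.5, 1 at E18.5 and 1 at P2.5. With Morc1 tg/+ controls only, the interaction of Dnmt3l and Morc1 gave 2. A replicate block gave 27 calls for the Miwi2 labels and 2 in germ cells at E16.5, and moved no other count by over 1.5 times. The numbers were not taken as pairs, since same-numbered libraries did not deviate together in every pair. For the Miwi2 labels their deviations correlated at 0.321 in both pairs. With 2 libraries per label that is too little to settle whether the numbers mark pairs, and the count there depends on that choice.

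Leaving out 1 library at a time gave 5 to 17 calls in Morc1 testis at P10.5, 4 to 15 at P14.5, 16 to 26 for Dnmt3l, 4 to 8 for the Miwi2 labels, 0 to 3, 0 to 1, 0 to 1 and 3 to 6 in Morc1 germ cells from E16.5 to P10.5, 30 to 33 for age in testis, 0 to 22, 12 to 18 and 13 to 20 for the 3 germ cell intervals, 35 to 37 for germ cells against testis, and 2 to 6 and 1 to 13 for the 2 interactions. Calls over all genes also varied in these fits. They ran from 922 to 2352 in Morc1 testis at P10.5, 3517 to 5001 at P14.5 and 6964 to 8745 for Dnmt3l. For Morc1 germ cells of P10.5 they ran from 1144 to 1824 and for age in testis from 7966 to 8932. For germ cells from P2.5 to P10.5 they ran from 4335 to 6803, and against testis from 11629 to 12501. The 2 interactions gave 772 to 1746 and 1753 to 4021. The cause of these ranges was not tested. Where a group held 2 libraries, as for the Miwi2 labels and germ cells of E16.5 and E18.5, leaving 1 out assumes that the lone library varies like the other group, so these fits are a weak check. Germ cell libraries of E18.5 and P2.5 held the fewest reads.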
